A study of Mus musculus with 24 samples.

Results

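The genes of cholesterol synthesis, and of the SREBP2 pathway that controls them, were measured in cultured mouse vibrissa follicles. The set was 29 genes taken by their roles and not by a rule on their values, though earlier results of these data were known. They are the enzymes from acetyl-CoA to cholesterol, the proteins that sense sterols and release SREBP2, and 4 proteins that carry or export sterols. A gene was measured where a non-control probe of the array carried its name, and the probe with the highest mean log2 signal stood for it. Of the 29 genes, 28 had such a probe, among 22065 genes or transcripts tested in all. Acat2 was the gene without one.

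Follicles came from B6C3F1 mice on postnatal day 9, and each sample was the RNA of 10 follicles. All groups were kept for 24 h in RPMI 1640 medium with 10% fetal bovine serum, a serum that itself brings lipoprotein cholesterol. The control group had no compound named, and its labels give no vehicle. The other groups had panthenyl ethyl ether (PEE, an ether of the provitamin panthenol) at 0.3%, pyridoxine hydrochloride (PH, a form of vitamin B) at 0.015%, tocopherol acetate (TA, a vitamin E ester) at 0.024%, or PEE-PH, PEE-TA, PH-TA and PEE-PH-TA at these same concentrations. The study asked what these compounds, alone and mixed, do to follicles in culture. Each of the 8 groups had 3 arrays from 3 independent experiments, so p-values measure the spread between these samples.

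Cholesterol is built from acetyl-CoA through mevalonate, isoprenoid pyrophosphates, squalene and lanosterol, and then through a series of methyl removals and double-bond changes. Its control runs through SREBP2, a transcription factor made as a membrane protein and escorted by SCAP. When sterols are plentiful, INSIG proteins hold SCAP and SREBP2 in the endoplasmic reticulum. When they are scarce, SREBP2 moves to the Golgi and is cut by the site proteases encoded by Mbtps1 and Mbtps2, and its freed part turns on genes of sterol synthesis and uptake. In skin, inherited loss of late enzymes such as NSDHL and EBP disturbs the epidermis and hair.

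The promoters of 5 genes are shown because they belong to the genes with the largest rise in each block of enzymes, to the gene with the strict sterol motif and to Lbr, which did not move with its partner enzyme. They are the 250 bases before the start site, from RefSeq on the build GRCm38.p6, read 5′ to 3′ on the gene's own strand. Capitals mark CCAAT (the NF-Y box), GGGCGG (the Sp1 box) and TCACNCCAC (a strict sterol regulatory element) on either strand, so that CCAAT can appear as ATTGG and GGGCGG as CCGCCC. The regions are chr8:122443423-122443672 on the minus strand (Mvd), chr10:76531355-76531604 on the plus strand (Lss), chr19:6067851-6068100 on the minus strand (Tm7sf2), chr13:119690101-119690350 on the plus strand (Hmgcs1) and chr1:181842402-181842651 on the minus strand (Lbr).
Mvd: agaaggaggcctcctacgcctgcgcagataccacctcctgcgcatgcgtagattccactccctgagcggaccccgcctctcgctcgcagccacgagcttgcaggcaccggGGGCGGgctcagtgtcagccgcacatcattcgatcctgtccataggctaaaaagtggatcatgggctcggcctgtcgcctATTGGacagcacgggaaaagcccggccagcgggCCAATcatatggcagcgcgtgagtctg
Lss: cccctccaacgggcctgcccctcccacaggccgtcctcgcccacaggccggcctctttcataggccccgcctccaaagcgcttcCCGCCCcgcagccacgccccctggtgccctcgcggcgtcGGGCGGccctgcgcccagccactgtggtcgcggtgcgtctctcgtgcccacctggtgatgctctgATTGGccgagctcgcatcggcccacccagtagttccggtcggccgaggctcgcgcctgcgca
Tm7sf2: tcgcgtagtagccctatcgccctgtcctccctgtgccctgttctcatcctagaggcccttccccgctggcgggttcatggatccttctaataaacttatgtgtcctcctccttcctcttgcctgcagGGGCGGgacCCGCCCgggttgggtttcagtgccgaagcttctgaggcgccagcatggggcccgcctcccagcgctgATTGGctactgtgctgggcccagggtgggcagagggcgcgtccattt
Hmgcs1: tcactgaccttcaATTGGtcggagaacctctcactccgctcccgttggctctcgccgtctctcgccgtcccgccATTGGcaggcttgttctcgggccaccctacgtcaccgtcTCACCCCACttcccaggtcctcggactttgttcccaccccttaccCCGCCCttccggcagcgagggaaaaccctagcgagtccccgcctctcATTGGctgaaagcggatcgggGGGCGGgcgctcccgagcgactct
Lbr: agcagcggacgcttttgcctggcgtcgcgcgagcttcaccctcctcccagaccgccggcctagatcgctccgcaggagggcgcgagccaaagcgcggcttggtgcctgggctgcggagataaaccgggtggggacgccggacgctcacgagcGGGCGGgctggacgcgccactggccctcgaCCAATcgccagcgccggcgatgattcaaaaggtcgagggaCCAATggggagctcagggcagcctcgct

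Of the 29 genes, 24 had at least 1 promoter in that table, 30 promoters in all. CCAAT was found in 20 of the 24 genes (83.3%), against 37.5% of all 27025 genes of the table and 39.5% of the 13606 genes that were also tested here. GGGCGG was found in 22 of 24 (91.7%), against 35.4% and 55.6%. The strict element TCACNCCAC was found in Hmgcs1 alone (1 of 24, 4.17%, against 1.22% of all genes and 1.23% of those tested), from base -137 to base -129 relative to the start site. The looser TCANNCCAC, which includes the strict form, gave the same 1 gene, against 4.06% of all genes. The E-box CACGTG stood in 5 genes, Hsd17b7, Sc5d, Dhcr7, Scap and Insig1 (20.8%, against 6.86% of all genes and 8.94% of those tested). Lbr, Mvd and Lss all hold CCAAT and GGGCGG, so these letters were present in the promoter of a gene that did not pass with PEE as well as in those that rose. A match describes the sequence and was not tested for binding.

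Per array, 58.3 to 62.5% of spots exceeded background clearly, and the 75th percentile signal lay between 142 and 248. The 3 arrays of each group had a correlation of 0.993 to 0.997 over genes, which are no replicates. The probes standing for the 28 genes were well above background on all 24 arrays. In all 60 probes carried these names and 53 were tested, more than 1 for 18 of the genes. The label of the tissue was checked with 14 markers of hair follicle epithelium, such as Krt5, Krt85 and Foxn1, which were all well above background on 24 arrays. So were 12 of 12 sebaceous, 10 of 10 macrophage, 8 of 8 endothelial and 10 of 10 skeletal muscle markers, and 6 of 8 adipocyte markers. In such whole follicles, fewer cells of a type and less RNA per cell cannot be told apart. The number of arrays limits the precision. Levels below are log2 signal relative to the 75th percentile of the same array, differences are on the log2 scale, and values after ± are standard errors.

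Nearly the whole synthesis pathway was higher in follicles kept with PEE. Averaged over the 4 media in which it was added (alone, with PH, with TA and with both), 21 of 28 genes rose and 1 fell (limma over all genes, adjusted p below 0.05), where 27.0% of all genes passed, 12.8% higher and 14.2% lower. The rises covered 6 of 6 mevalonate enzymes (median 0.79), 3 of 3 from farnesyl pyrophosphate to lanosterol (median 0.74) and 8 of 9 from lanosterol to cholesterol (median 0.70). Only 1 of 6 genes of the SREBP2 machinery rose and 1 fell (median 0.02), and 3 of 4 transport genes rose (median 0.20). The median over the 28 genes was 0.57, beside 0.01 over all genes tested. PH and TA gave no such rise: the highest average effect of PH on an enzyme was -0.03 (Lbr), and TA called 0 of 28 genes.

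**Figure D1:**
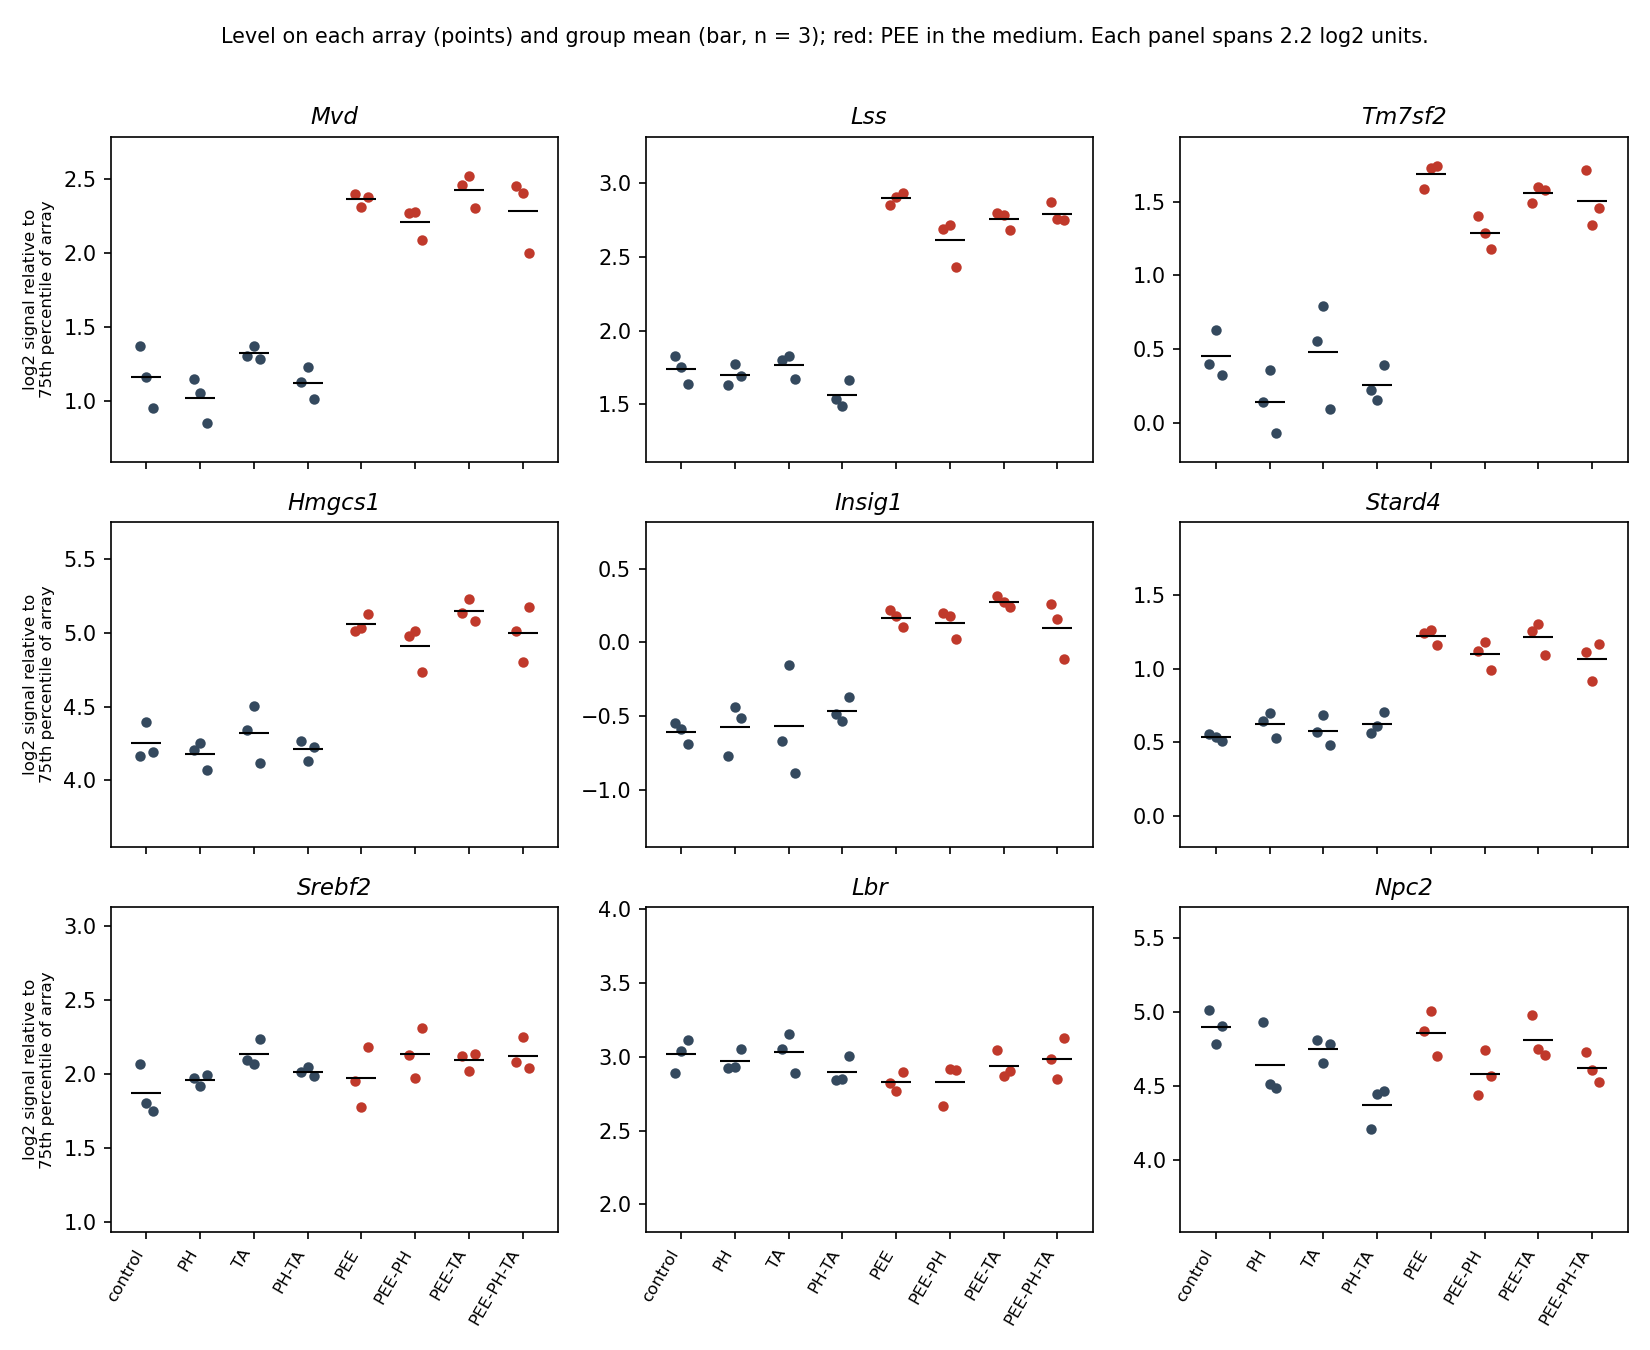
Level of 9 genes on each of the 24 arrays (points), with the mean of 3 arrays (bar), in log2 signal relative to the 75th percentile of the array; groups with PEE are red and every panel spans the same range. In Mvd, Lss, Tm7sf2, Hmgcs1, Insig1 and Stard4 all 12 arrays with PEE lie above all 12 without it, while in Srebf2, Lbr and Npc2 they overlap.

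Mvd, the decarboxylase that makes isopentenyl pyrophosphate, had the largest rise among the mevalonate enzymes. Its levels were 1.37, 1.16 and 0.95 in control and 2.40, 2.31 and 2.38 with PEE alone. Over the 12 arrays without PEE the lowest, median and highest levels were 0.85, 1.15 and 1.37, and over the 12 with it 2.00, 2.34 and 2.52. The ranges did not overlap, and the average effect was 1.17 ± 0.06 or 2.25-fold (limma, adjusted p = 5.37e-11). The differences on the 3 slides, 1.16, 1.17 and 1.17, were nearly equal. The probe lies on chromosome 8 from 124957750 to 124957809 in mm9, minus strand.

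Idi1, the isomerase that makes dimethylallyl pyrophosphate, had levels of 3.29, 3.54 and 3.47 in control and 4.45, 4.37 and 4.48 with PEE. It ran from 2.91 to 3.54 on the arrays without PEE and from 3.89 to 4.48 on those with it, again without overlap. Its average effect was 0.95 ± 0.05 (limma, adjusted p = 3.18e-10). Hmgcs1, the HMG-CoA synthase that feeds the pathway, had 4.17, 4.39 and 4.19 in control against 5.01, 5.03 and 5.13 with PEE, and an average effect of 0.79 ± 0.05 (3.01e-09). Pmvk, the phosphomevalonate kinase, and Fdps, the farnesyl pyrophosphate synthase, rose by 0.79 ± 0.05 (limma, adjusted p = 4.21e-10) and 0.73 ± 0.04 (1.32e-10), both with no overlap of the 12 arrays with the 12 others. Mvk, the mevalonate kinase, rose least in this block, by 0.41 ± 0.04 (8.14e-07). Its lowest array with PEE, at 3.96, stood below the highest without it, and 11 of 12 arrays with PEE were above all those without.

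Lss, which folds squalene epoxide into lanosterol, the first sterol, had 1.83, 1.76 and 1.64 in control and 2.85, 2.91 and 2.93 with PEE. Its 12 arrays without PEE ran from 1.49 to 1.83 and its 12 with PEE from 2.43 to 2.93, a gap wider than the range of the arrays without it. The average effect was 1.07 ± 0.04 or 2.10-fold (limma, adjusted p = 4.71e-13). The probe lies on chromosome 10 from 76016592 to 76016651 in mm9. A neighbouring probe gave 1.02, but a further one, from 76019513 to 76019572, gave 0.39, so the size for Lss depends on the probe. Fdft1, the squalene synthase at the branch into sterols, rose by 0.74 ± 0.04 (1.53e-10) and Sqle, the squalene epoxidase, by 0.55 ± 0.04 (3.85e-08), each with all 12 PEE arrays above the 12 others.

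In the steps after lanosterol, Tm7sf2 and Lbr, whose proteins both reduce the sterol at the same double bond, differed. Tm7sf2 had 0.40, 0.63 and 0.33 in control and 1.58, 1.73 and 1.74 with PEE. Over all arrays it ran from -0.06 to 0.79 without PEE and from 1.18 to 1.74 with it, and the average effect was 1.17 ± 0.07 or 2.26-fold (limma, adjusted p = 8.4e-10). Its probe lies on chromosome 19 from 6062882 to 6062941 in mm9, and a further probe gave 1.22. Lbr, which is also a receptor for lamin B in the nuclear envelope, had 2.89, 3.04 and 3.12 in control and 2.82, 2.77 and 2.89 with PEE. Its arrays with and without PEE overlapped (2.67 to 3.13 and 2.84 to 3.15). The average effect on Lbr was -0.08 ± 0.05 and did not pass (0.202), with a 95% interval of -0.18 to 0.01. Lbr was the only enzyme of the 3 synthesis blocks that did not rise.

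Cyp51, the demethylase that acts on lanosterol itself, had 2.89, 2.86 and 2.62 in control and 3.74, 3.59 and 3.74 with PEE, and rose by 0.88 ± 0.04 on average (limma, adjusted p = 3.21e-11). The enzymes that take off the methyl groups at the fourth carbon followed. Hsd17b7, the ketone reductase of that step, rose by 0.78 ± 0.04 (8.05e-11), Nsdhl, its dehydrogenase, by 0.75 ± 0.04 (1.53e-10) and Msmo1, its oxidase, by 0.57 ± 0.04 (8.73e-09). All 4 genes had every PEE array above every other array. A dimmer probe of Nsdhl, well above background on 23 arrays, gave 1.21.

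The last enzymes rose less, apart from Sc5d. Sc5d, the desaturase near the end of the pathway, rose by 0.70 ± 0.04 (limma, adjusted p = 4.33e-10) from 1.95, 2.05 and 1.91 in control to 2.67, 2.57 and 2.62 with PEE alone, while its other probe gave 0.32. Dhcr7, the final reductase on one route, rose by 0.52 ± 0.06 (1.71e-06), with 11 of 12 PEE arrays above all others. Ebp, the sterol isomerase, had the smallest rise of the enzymes that passed, 0.39 ± 0.03 (1.18e-07), yet its 12 PEE arrays, from 4.72 to 5.06, still lay above its 12 others, from 4.34 to 4.65.

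**Figure D2:**
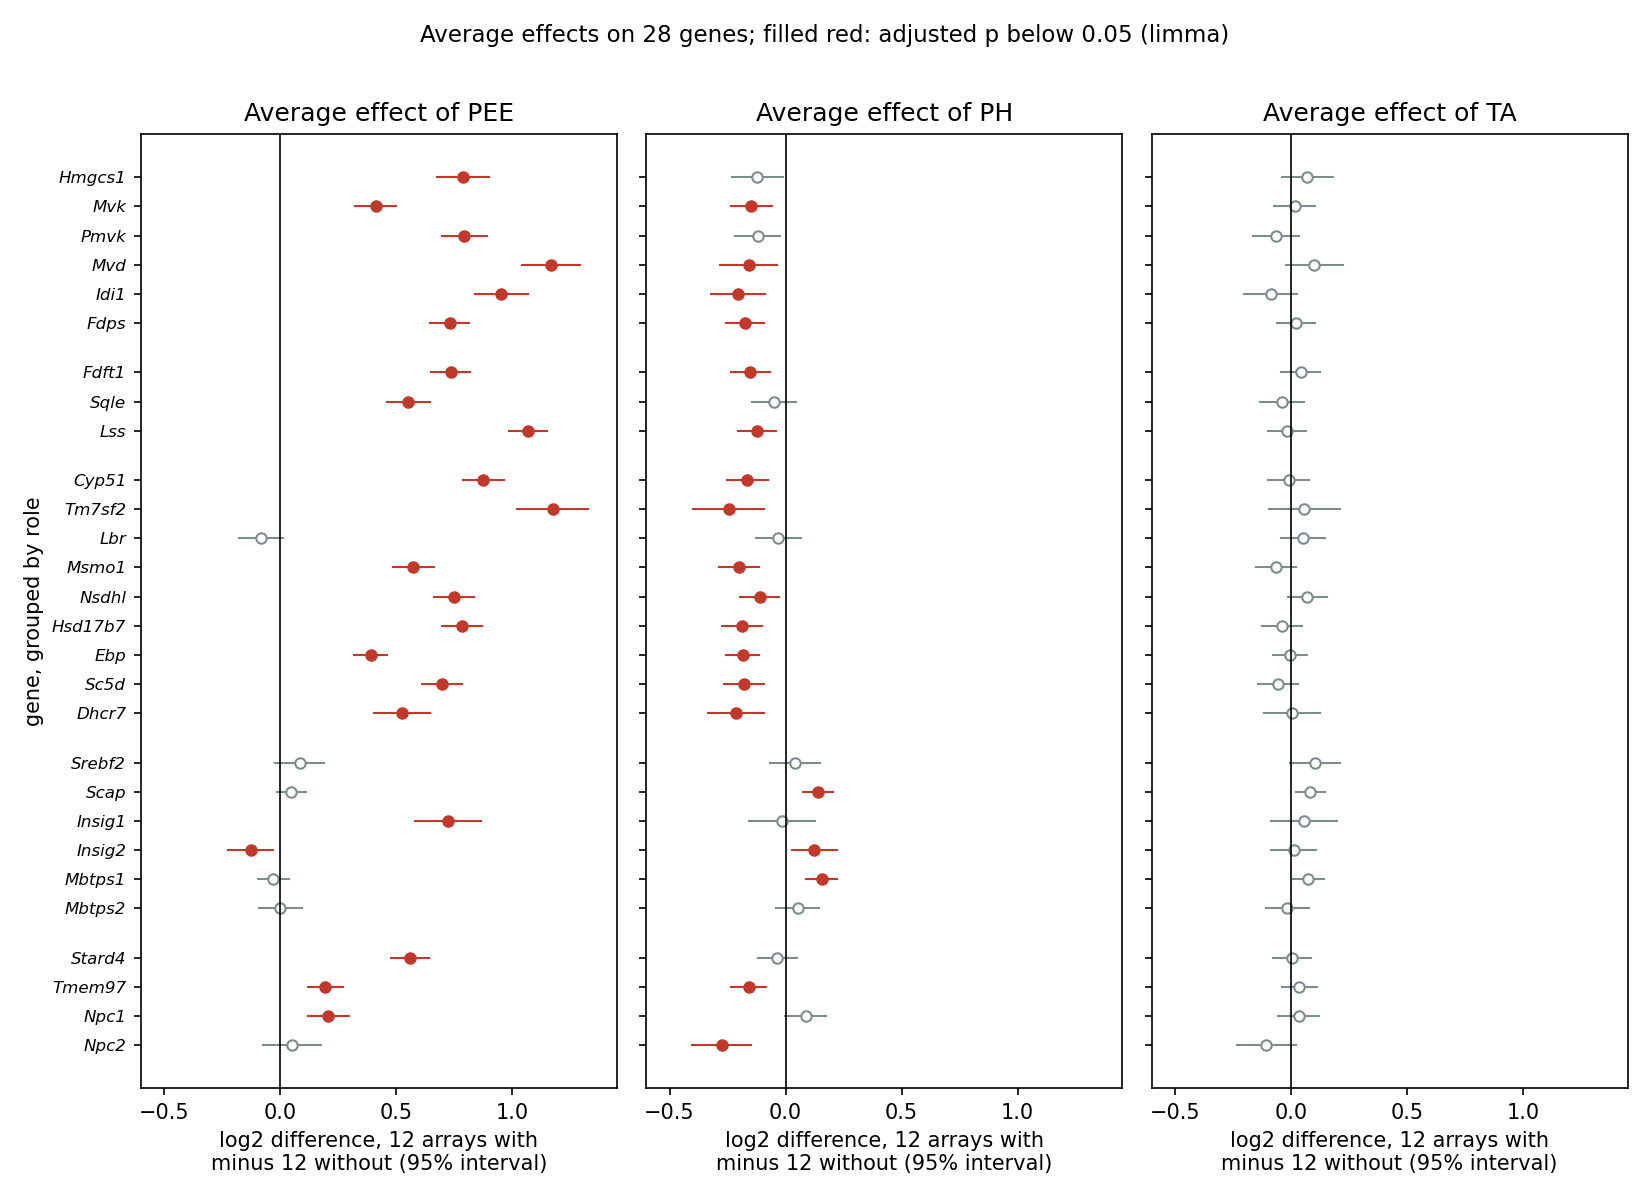
Average effect of PEE, PH and TA on each of the 28 genes, as the log2 difference of 12 arrays with the compound and 12 without it, with 95% intervals; filled red points passed (limma, adjusted p below 0.05). PEE points lie mostly between 0.39 and 1.17 for enzymes, PH points lie slightly below 0 for most enzymes, and no TA point passed.

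Among the genes that sense sterol and release SREBP2, Insig1 rose with PEE, and the other 5 had average effects from -0.13 to 0.08. Insig1 holds SCAP in the endoplasmic reticulum and is itself a target of SREBP2. Its levels were -0.55, -0.59 and -0.69 in control and 0.22, 0.18 and 0.10 with PEE, and its 12 arrays with PEE lay above the 12 without (lowest -0.11, highest without -0.15). The average effect was 0.72 ± 0.07 (limma, adjusted p = 2.99e-07). Insig2, which also retains SCAP, was lower by a small amount, -0.13 ± 0.05 (0.0493), with 2.92, 3.01 and 2.91 in control and 2.58, 2.81 and 2.73 with PEE. Leaving out any of 19 of the 24 arrays ended that call for Insig2 (highest adjusted p 0.0928, without PEE-PH replicate 1), as did each replicate number (up to 0.362, without number 1), and a further probe gave 0.06. Srebf2, the gene of SREBP2 itself, was 0.08 ± 0.05 (limma, adjusted p = 0.255) with a 95% interval of -0.02 to 0.19, and it had 2.07, 1.81 and 1.75 in control and 1.95, 1.78 and 2.18 with PEE. A dimmer probe of Srebf2, also well above background on 24 arrays, gave 0.27 ± 0.06, so the result for Srebf2 depends on the probe. Scap (0.05, 0.269), Mbtps1 (-0.03, 0.563) and Mbtps2 (0.00, 0.996) did not pass either.

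Of the 4 transport genes, Stard4, which moves sterol between membranes in the cytosol, rose most. It had 0.56, 0.54 and 0.51 in control and 1.24, 1.26 and 1.16 with PEE, without overlap over the 24 arrays (0.48 to 0.71 without, 0.92 to 1.30 with), and the average effect was 0.56 ± 0.04 (limma, adjusted p = 5.28e-09). Tmem97, a membrane protein that binds NPC1, rose by 0.20 ± 0.04 (4.69e-04) and 7 of its 12 PEE arrays were above all others. Npc1, the lysosomal membrane exporter of cholesterol, rose by 0.21 ± 0.04 (0.00109), with 8 of 12. That call for Npc1 ended without replicate number 1 (0.0875) and when its tested probes were averaged (0.13, 0.16), since a dim probe that was well above background on 11 arrays gave 0.05. Npc2, the soluble partner of NPC1 in the lysosome, was 0.05 ± 0.06 (0.596), with arrays from 4.44 to 5.01 with PEE and from 4.21 to 5.01 without.

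For 17 of the 28 genes the 12 arrays with PEE lay wholly above the 12 without, where 1.60% of all genes were separated in either direction. The sign of the difference was the same on all 3 slides for 25 of 28, beside 56.2% of all genes. For PH and for TA 0 of 28 genes were separated in this way, beside 0.0816% and 0% of all genes. The sign was the same on all 3 slides for 21 of 28 with PH (59.9% of all genes) and for 13 of 28 with TA (50.1%).

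The rise was present in each medium to which PEE was added. Against control it was higher for 19 genes and lower for 0 (limma, adjusted p below 0.05, where 10.9% of all genes passed, 5.20% higher and 5.69% lower). Added to PH it was higher for 19 and lower for 0 (12.6% of all genes, 5.14% higher and 7.47% lower), added to TA for 20 and 0 (6.66%, 3.04% higher and 3.62% lower), and added to PH-TA for 20 and 0 (13.5%, 8.61% higher and 4.91% lower). The same 19 genes were called higher in all 4 media, which is 67.9% of the members and 0.988% of all genes. They were the 17 enzymes other than Lbr, Insig1 and Stard4. Tmem97 and Npc1 passed in 1 medium each and 7 genes in none. The 4 comparisons use separate arrays, but they enter a common estimate of the spread.

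The size of the effect of PEE varied little for some genes and more for others. For Mvd it ran from 1.11 to 1.20 over the 4 media, for Hmgcs1 from 0.73 to 0.83 and for Fdft1 from 0.70 to 0.77. For Sc5d it ran from 0.46, where PEE was added to PH, to 1.04, where it was added to PH-TA, and for Pmvk from 0.58 to 1.02 in these same media. The Sc5d values are those of the probe standing for the gene. With PH-TA against control that probe gave -0.43 and the other tested probe of Sc5d 0.21, so the variation for Sc5d may depend on the probe. Whether PEE adds to the other compounds was tested as the average non-additivity on the log2 scale. It called 0 of 28 genes with PH and 0 with TA (limma), and 0% of all genes passed in either test. An unadjusted p below 0.05 was found for 3 of 28 genes with PH and 5 of 28 with TA, beside 4.21% and 14.5% of all genes. The lowest adjusted p was 0.175, for Sc5d with TA (0.29 ± 0.08, 95% interval 0.11 to 0.46). For Hmgcs1 with PH, the non-additivity was -0.06 with a 95% interval of -0.28 to 0.16. The test could not tell departures within that interval from additivity.

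**Figure D3:**
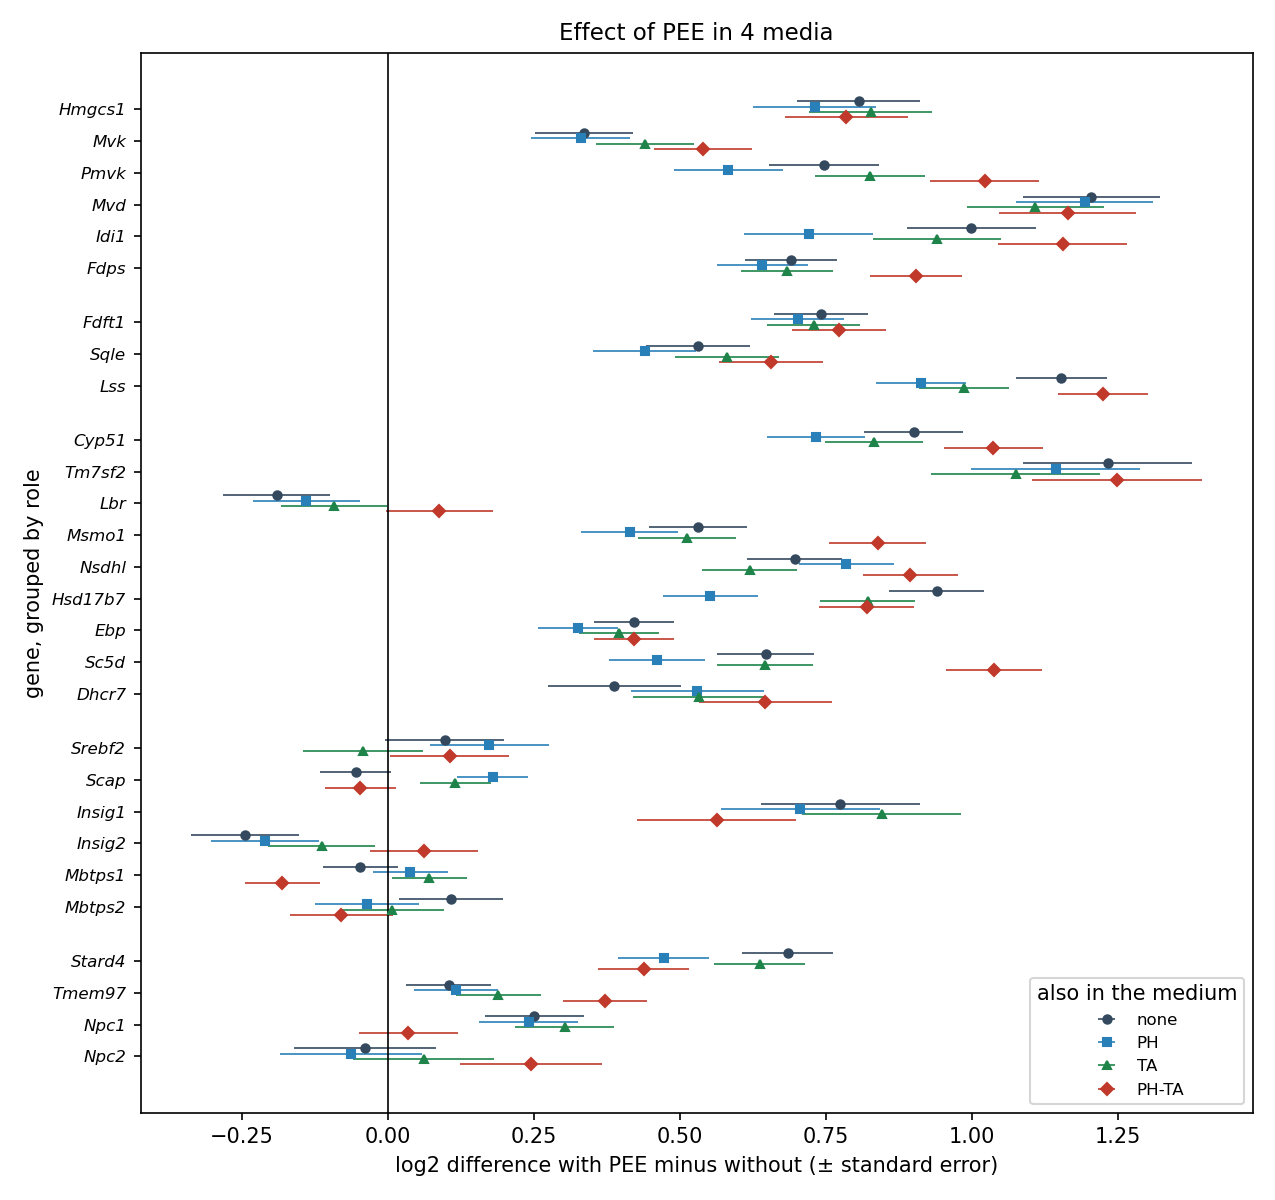
Effect of PEE on each of the 28 genes in the 4 media to which it was added, as log2 differences of 3 arrays with and 3 without PEE, with standard errors; a marker and colour stand for each medium. For Mvd the 4 values lie between 1.11 and 1.20, for Sc5d between 0.46 and 1.04, and for most of the SREBP2 machinery they lie around 0.

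Most of the genes were also above control in the mixtures with PEE, with a smaller rise in PEE-PH. The median over the 28 genes was 0.59 with PEE alone, 0.52 with PEE-TA, 0.40 with PEE-PH and 0.52 with all 3 compounds. PEE-TA was higher for 22 genes and lower for 0 (limma, adjusted p below 0.05, where 25.5% of all genes passed, 10.2% higher and 15.3% lower). PEE-PH was higher for 18 and lower for 1 (35.9%, 14.9% higher and 20.9% lower) and PEE-PH-TA for 19 and 0 (16.5%, 7.78% higher and 8.72% lower). These comparisons share the control arrays. Against control, Mvd was 1.20 with PEE, 1.27 with PEE-TA, 1.05 with PEE-PH and 1.13 with all 3 compounds. Lss had 1.15, 1.01, 0.87 and 1.05 in the same order, and Idi1 had 1.00, 0.79, 0.56 and 0.78. PEE-PH thus had the lowest value of the 4 for each of these genes. When PH was added to PEE, 10 of 28 genes fell and 2 rose (limma, where 33.5% of all genes passed, 12.9% higher and 20.6% lower), with Hsd17b7 falling by 0.49, Idi1 by 0.44 and Sc5d by 0.35, and Scap (0.32) and Mbtps1 (0.30) rising. Added to PEE-TA, PH called 0 genes (0 at an unadjusted p below 0.05, and 0.240% of all genes).

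Calls on the smaller differences were lost with single arrays or settings. With PEE alone, the call for Mvk (0.34) ended when any of 3 single arrays was left out (highest limma adjusted p 0.063, without PEE replicate 1). That for Dhcr7 (0.39) ended for 5 arrays (highest 0.16, without PEE replicate 3). With array signal as a covariate, PEE had 19 calls, PEE-TA had 18, PEE-PH-TA had 17 and PEE-PH had 11. The 3 arrays with PEE alone were the dimmest of the series (142 to 147) and those with PEE-PH among the brighter ones (199 to 217), and the part of this in the results was not tested beyond that covariate.

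**Figure D4:**
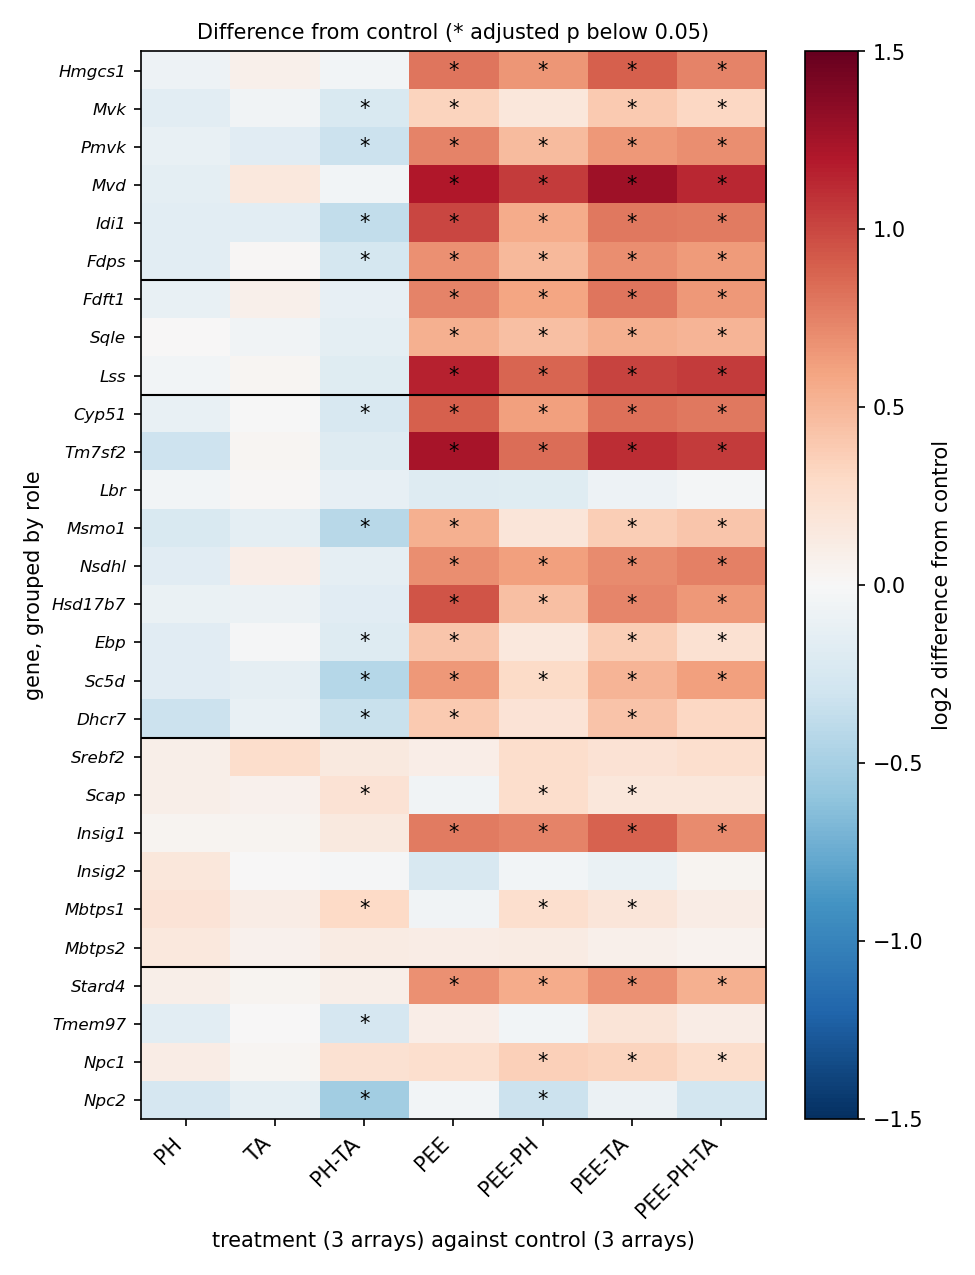
Log2 difference of each treatment from control for the 28 genes, 3 arrays against 3, where red is higher, blue is lower and a star marks an adjusted p below 0.05 (limma). The 4 columns with PEE are red for the enzymes other than Lbr, the columns of PH and TA hold no star, and the column of PH-TA holds 11 blue and 2 red starred cells.

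Most of the enzymes were slightly lower with PH. Averaged over its 4 media, 16 of 28 genes fell and 3 rose (limma, adjusted p below 0.05), where 31.3% of all genes passed, 13.9% higher and 17.4% lower. The median was -0.14, beside -0.02 over all genes. The falls covered 4 of 6 mevalonate enzymes, 2 of 3 from farnesyl pyrophosphate to lanosterol, 8 of 9 after lanosterol and 2 of 4 transport genes. Without replicate number 1 the 19 calls became 3, without number 2 they became 6, and with array signal as a covariate 3. Arrays with PH had a higher median brightness (195, range 175 to 248) than those without (176, range 142 to 200), and the part of brightness in the result was tested only by that covariate.

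The largest fall with PH was in Npc2, by 0.28 ± 0.06 (limma, adjusted p = 0.00259). Its 12 arrays with PH had a lowest, median and highest level of 4.21, 4.52 and 4.93, and its 12 without PH had 4.65, 4.80 and 5.01, so that 9 of 12 lay below all arrays without PH. Among the enzymes Tm7sf2 fell by 0.24 ± 0.07 (0.0165), Dhcr7 by 0.21 (0.00914), Idi1 by 0.21 (0.00938) and Msmo1 by 0.20 (0.00183), with arrays that overlapped. Smaller falls that passed were those of Hsd17b7 (-0.19), Ebp (-0.18), Sc5d (-0.18), Fdps (-0.18), Cyp51 (-0.16), Mvd (-0.16), Tmem97 (-0.16), Fdft1 (-0.15), Mvk (-0.15), Lss (-0.12) and Nsdhl (-0.11). Further probes of Lss gave -0.15 and 0.20 and that of Sc5d gave 0.05, so the direction for Lss and Sc5d depends on the probe. Where the other genes of this list had a further tested probe, it was negative too. The calls for Mvd and Nsdhl ended when any of 18 and 15 single arrays was left out (highest limma adjusted p 0.0834, without control replicate 1, and 0.0836, without PH-TA replicate 1). Cyp51, Hsd17b7 and Ebp were the 3 genes still called with array signal as a covariate.

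The 3 genes that rose with PH belong to the SREBP2 machinery. They are 10.7% of the 28 genes, below the 13.9% of all genes that rose in that test. Mbtps1, the first protease to cut SREBP2, rose by 0.16 ± 0.03 (limma, adjusted p = 0.00168), from 3.58 to 3.94 over the 12 arrays without PH to 3.75 to 4.06 over those with it. Scap, its escort, rose by 0.14 ± 0.03 (0.00254). Insig2 rose by 0.12 ± 0.05 (0.0495), and 18 of 24 single arrays ended that call when left out (highest 0.0906, without PEE replicate 1). Other tested probes gave 0.01, 0.11 and 0.13 for Mbtps1 and 0.09 and 0.03 for Insig2, so the size depends on the probe. With array signal as a covariate the effects on Mbtps1, Scap and Insig2 were 0.07, 0.05 and 0.12. They did not pass (limma, adjusted p = 0.542, 0.651 and 0.514). PH alone against control called 0 of 28 genes (limma, where 5.25% of all genes passed, 1.60% higher and 3.65% lower), with 7 at an unadjusted p below 0.05. That unadjusted count stands without a share of all genes at the same cutoff. When the tested probes of each gene were averaged that comparison called 4, and with a trended and robust prior 1.

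TA gave the smallest differences. Its average effect called 0 of 28 genes (limma, where 7.99% of all genes passed, 2.78% higher and 5.20% lower), with 2 at an unadjusted p below 0.05 and a median of 0.01, beside -0.01 over all genes. Scap had the lowest adjusted p (0.098, 0.08 ± 0.03), and Srebf2, at 0.11 ± 0.05, did not pass (0.215). For the enzymes the average effects ran from -0.09 for Idi1, with a 95% interval of -0.20 to 0.03, to 0.10 for Mvd, with -0.02 to 0.22. TA alone against control called 0 of 28 (1.83% of all genes, 0.399% higher and 1.43% lower), with 1 at an unadjusted p below 0.05, Srebf2 at 0.26 (0.196). Added to PEE, TA called 2 of 28 genes higher and 0 lower (limma, where 23.2% of all genes passed, 1766 of 22065 higher and 15.2% lower). They were Scap (0.23 ± 0.06, 0.0113) and Mbtps1 (0.23 ± 0.06, 0.016), and PEE alone was the group with the dimmest arrays. Added to PH and to PEE-PH, TA called 0 of 28 (0.322% and 0.721% of all genes), with 5 at an unadjusted p below 0.05 in each. The unadjusted counts for TA stand without a share of all genes at the same cutoff. With normexp background the average effect of TA called 2 genes and with averaged probes 1.

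PH with TA and without PEE was the mixture with the most genes below control. It called 11 of 28 genes lower and 2 higher (limma, adjusted p below 0.05), where 29.6% of all genes passed, 12.1% higher and 17.5% lower, and the median was -0.16 beside -0.06 over all genes. Sc5d had 1.53, 1.49 and 1.61, all below the 1.95, 2.05 and 1.91 of control, and fell by 0.43 ± 0.08 (limma, adjusted p = 0.00128), but its other probe gave 0.21. Msmo1 had 4.18, 4.26 and 4.40 against 4.66, 4.73 and 4.70 and fell by 0.42 ± 0.08 (0.00157), and its other probes gave -0.41 and, for a dimmer one, -1.15. Npc2 had 4.21, 4.45 and 4.46 against 5.01, 4.78 and 4.90 and fell by 0.53 ± 0.12 (0.004). The groups of 3 did not overlap for any of these 3 genes, as was so for 5 of 28 genes above and 12 below control, and for 44.6% of all genes. Mbtps1 (0.30 ± 0.06, 0.0027) and Scap (0.22 ± 0.06, 0.0122) rose.

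These calls for PH-TA depended on the arrays and on the setting. Of 13 calls, 3 were made without replicate number 1, 1 without number 2, 4 without PH-TA replicate 1, 6 without control replicate 2 and 8 without either control replicate 1 or control replicate 3. The value table of the authors gave 7, the arrays of these 2 groups alone 4, and array signal as a covariate 0. The arrays with PH-TA were among the brightest of the series (203 to 248, against 155 to 190 in control). The non-additivity of PH with TA called 0 of 28 genes (limma, where 13.7% of all genes passed, 9.88% higher and 3.82% lower), with 2 of 28 at an unadjusted p below 0.05 beside 27% of all genes, and Mbtps1 had the lowest adjusted p (-0.19 ± 0.06, 0.0541).

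Genes around the pathway were read from 8 further lists. Of 12 genes that supply acetyl-CoA or use ketone bodies, 5 rose with PEE on average and 2 fell (limma). Their median was 0.03, beside 0.01 over all genes. Of all genes, 12.8% rose and 14.2% fell in that test, so the 2 fallers are near that share. Acss2, which makes acetyl-CoA from acetate in the cytosol, rose by 1.20 ± 0.06 (adjusted p = 1.38e-10), and Aacs, which activates acetoacetate for lipid synthesis, by 0.58 ± 0.04. Acat1, the mitochondrial thiolase, fell by 0.24 and Acss1, the mitochondrial acetate enzyme, by 0.19. Of 15 genes of SREBP1 and fatty acid synthesis, 10 rose and 0 fell (median 0.37), beside the same 12.8% and 14.2%. The risers were led by the desaturase Scd2 (0.64 ± 0.04) and the acyl-CoA synthetase Acsl3 (0.54 ± 0.07). Near-identical relatives such as the Scd genes may share signal on the array.

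In the branch from farnesyl pyrophosphate to dolichol, ubiquinone and prenylated proteins, 1 of 16 genes rose and 2 fell (limma, average effect of PEE; median -0.01). Of all genes, 12.8% rose and 14.2% fell in that test, so the counts of this branch are no more than those of genes at large. Nus1, a subunit of the enzyme that starts dolichol, rose by 0.18, while Pdss1, which builds the ubiquinone tail, fell by 0.42 ± 0.05, and Coq2, which attaches it, by 0.24. Of 14 measured genes of sterol-regulated degradation in the endoplasmic reticulum, 3 rose and 0 fell (median 0.06), with Pgrmc1, a haem-binding membrane protein that binds sterol enzymes and INSIG1, at 0.48 ± 0.03 and the segregase Vcp at 0.14. Those 3 of 14 stand beside the same 12.8%.

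Lists of genes that remove or move sterols held both risers and fallers, while the list of esterification, hydrolysis and sulfation held risers alone. Their counts stand beside 12.8% of all genes higher and 14.2% lower. Of 12 genes of the LXR pathway and sterol efflux, 4 rose and 1 fell with PEE (limma; median 0.09), with Abca2, a transporter of the endolysosome, at 0.23 and Nr1h2, the gene of LXR beta, at 0.13, and the efflux transporter Abcg4 at -0.15. Of 7 oxysterol and bile acid genes, 1 rose and 2 fell (median -0.09): Hsd3b7 was at 0.27, while Ch25h, which makes 25-hydroxycholesterol, fell by 0.91 ± 0.15 (adjusted p = 1.58e-04), and Gpr183, the receptor for a product of that sterol, by 0.59 ± 0.14. Of 9 genes of esterification, hydrolysis and sulfation, 4 rose and 0 fell (median 0.09), with the lysosomal lipase Lipa at 0.60 ± 0.05 and the lipase Lipe at 0.27. Of 22 uptake and transfer genes, 5 rose and 3 fell (median 0.01), with the sterol transfer protein Gramd1c at 0.42 and the receptor Lrp1 at 0.25 among the risers and Rab8a (-0.18) and Cav1 (-0.16) among the fallers.

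Markers of other cells in the follicle samples also passed the test of the average effect of PEE in some cases, where 27.0% of all genes did, 12.8% higher and 14.2% lower. Of 8 endothelial markers 5 rose and 0 fell (limma). Their summed level had a lowest, median and highest value of 3.67, 4.10 and 4.65 over the 12 arrays without PEE and 3.93, 4.35 and 4.63 over the 12 with it, so the ranges overlapped. It was 3.77 to 3.93 in control and 4.36 to 4.56 with PEE alone, and it reached 4.39 with TA and 4.65 with PH-TA. Of 10 macrophage markers 2 rose and 5 fell. Their summed level was 5.55 to 5.92 in control and 5.87 to 6.09 with PEE alone, which overlapped, and 5.47 to 5.67 with PEE-PH, 5.46 to 5.60 with PEE-TA and 5.48 to 5.77 with all 3 compounds. Over all arrays it ran from 5.29 to 5.92 without PEE and from 5.46 to 6.09 with it. Of 8 adipocyte markers 2 rose and 0 fell (4.65 to 5.22 without PEE and 4.40 to 5.07 with it), and of 12 sebaceous markers 0 rose and 2 fell (5.43 to 5.89 and 5.37 to 5.90). Of 14 follicle epithelium markers 0 rose and 3 fell (10.98 to 11.33 and 10.79 to 11.19), and of 10 skeletal muscle markers 0 passed (4.31 to 6.57 and 5.24 to 6.92). Their part in the rise of the synthesis genes was not tested.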

How the data were processed

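Deposited scanner output of 24 one-colour arrays was used, with 3 arrays in each of 8 groups. Per the file headers, the authors' signal intensities came from Agilent Feature Extraction 12.0.3.1 (also in the submitters' processing notes), with probe positions on mm9. Spots marked as outliers were left out. Of 56605 probes, 33340 were tested, those that all 3 arrays of some group showed well above background. Their log2 processed signal minus the log2 75th percentile of the array was fitted with 8 group means in limma 3.58.1 (R 4.3.3), with 16 residual degrees of freedom and p-values adjusted by Benjamini and Hochberg over the 22065 genes or transcripts within each comparison, at a threshold of 0.05. An average effect is the mean difference over the 4 media with and without a compound. Steps were tested on simulated data.

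The genes, lists and tests were chosen with earlier results of these data known. In each role the genes with the largest average effect of PEE, and any called for PH, TA or non-additivity, are given in full, and up to 2 risers and 2 fallers of each other list. Each slide carried 1 array of each group and 1 replicate number, and was scanned in 1 session. The authors' deposited value table, in log2, served as an alternative, and each of its 24 columns was closest to the scan of its own array. The other alternatives were quantile normalization, normexp with an offset of 50, dim probes kept, tested probes averaged, the replicate block, limma's trended and robust prior, a fit to the compared arrays alone, and leaving out arrays or replicate numbers. Array signal as a covariate was added after the data were seen. Exon and UTR positions of the probes were not analysed here. The labels name biotin, while the scans hold 1 green channel.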

Additional observations from a re-analysis of the deposited data

How the results depend on the processing

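Each replicate number is also a slide and a scan session. Same-numbered arrays of different groups had correlated deviations from their group means of r = -0.19 to 0.35 (median 0.10, over 0.1 in 44 of 84 pairs), against a median of -0.05 for other numbers, and 19 of 24 arrays correlated best with their own number. The number was not taken as pairing in the reported fits because not every pair was over 0.1. That rule is strict, and these values do not show that the number had no effect. With the replicate block the average effect of PEE kept 22 calls, that of PH 19 and PH-TA 13, and no count moved by over 1.5 times. Leaving out single arrays or replicate numbers gave counts of 14 to 20 for PEE against control, 13 to 20 for PEE-PH, 16 to 24 for PEE-TA, 1 to 14 for PH-TA, 13 to 21 for PEE-PH-TA, 20 to 22 for the average effect of PEE, 3 to 19 for that of PH and 0 to 1 for the non-additivity of PH with TA, and 0 for the other 5 comparisons. Normexp gave 2 calls for the average effect of TA and 1 for the non-additivity of PH with TA. Averaging all tested probes gave 4 for PH against control, 1 for the average effect of TA and 2 for that non-additivity, and the trended and robust prior gave 1 for PH against control and 1 for the non-additivity. For PH-TA the value table of the authors gave 7 calls and only the arrays compared gave 4. With array signal as a covariate there were 11 for PEE-PH, 0 for PH-TA, 3 for the average effect of PH and 1 for the non-additivity of PH with TA. With averaged probes Npc1 turned to -0.18 for PEE-PH, -0.10 for PEE-TA and -0.36 for PEE-PH-TA, where its dim second probe was the added one. The cause of the other changes was not tested. Leaving out the filter on dim probes, which admits probes near background, moved the median of all genes by over 0.1 in some comparisons. It became -0.19 with PEE-PH and -0.20 with PH-TA, from -0.06 in both. With quantile normalization these 2 medians were 0.02 and 0.02, and with normexp -0.10 and -0.12.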
